A study of Mus musculus with 2 samples.

Results

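The genes described here are 39 genes of mitosis and of the G2/M transition, from the kinase that starts mitosis to the proteins that divide the cell. They were chosen by name, and every probe set that the platform annotation gives to 1 of them was taken. A probe set is a group of short probes on the array that together read 1 transcript. The annotation named at least 1 probe set for 38 of the 39 genes, out of 18193 named genes in all, and listed none for Ccnb1 (cyclin B1), which therefore has no value here. The 38 genes had 85 probe sets, of which 76 were measured, meaning over a detection floor of 47.04 on at least 1 array; that floor is the 40th percentile of all deposited signals. All 38 genes were over the floor on both arrays by their main probe set, the one with the highest mean log2 signal.

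The signals come from mouse skeletal myoblasts, the dividing cells that fuse into muscle fibres, grown in medium with 20% serum and harvested at 80% confluency at passage 3. One culture was wild-type (WT) and the other was a knockout (KO) of Foxj3, which encodes a forkhead transcription factor; both received the same growth conditions, and each was hybridised to 1 Affymetrix array. How Foxj3 was disrupted, and how many animals or clones each culture came from, is not given in the sources used here. With 1 array per genotype there is no spread between replicates and no test, so every ratio below describes these 2 arrays, and in bulk RNA fewer dividing cells cannot be told apart from less RNA per cell.

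Mitotic genes form a program that is switched on late in each cell cycle. Cdk1, activated by A- and B-type cyclins and by Cdc25 phosphatases, starts mitosis; Polo and Aurora kinases build the spindle; kinetochore proteins tie chromosomes to it; the spindle checkpoint holds back the ubiquitin ligase APC/C until every chromosome is attached; and kinesins and cytokinesis factors then split the cell. Myoblasts leave this program for good when they differentiate, which is why its transcripts are commonly read as a measure of proliferation in muscle cultures.

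Foxj3, the targeted gene, differed in direction between its measured probe sets: the brightest read 496 (WT) and 77.3 (KO), the other 79.7 and 99.4, and 1 more was under the floor on both arrays. Myoblast markers were present on both arrays, with 6 of 12 lower and 6 higher on the KO array and a median log2 ratio of KO over WT of 0.01. Their summed signals were 9899 (WT) and 9870 (KO). Sums over genes weigh bright probe sets most, here Chrna1 (3029 and 3104), and do not measure the share of a cell type. Among the 12 markers Myf5 read 731 and 724, Pax7 513 and 627, and Myod1 631 and 1751. Des, Fgfr4, Itga7, Megf10 and Cdh15 had ratios of -0.89, -0.94, -0.62, -0.58 and -0.55. Genes of differentiated muscle, the cells that have left the cycle, were lower on the KO array in 20 of 20 measured cases, with summed signals of 47310 and 9235 and Myog at 1754 and 488. Of the fibroblast, leukocyte and endothelial markers, 7 of 12, 7 of 11 and 4 of 10 were measured, and their summed signals were 1680 and 1887, 929 and 812, and 329 and 480.3. Ptprc, Pecam1 and Lum were under the floor on both arrays, whereas Adgre1 (313 and 210.3), Csf1r (171 and 276), Egfl7 (146 and 221), Pdgfra (454 and 389) and Col1a2 (423 and 701) were over it. The part of these differences in the values below was not tested.

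Mitotic genes as a whole were close to level between the arrays. The 38 members had a median log2 ratio of -0.08, beside -0.06 over the 14597 measured genes; with quantile and loess scaling, which set the arrays' distributions or trend equal, the members' median was above 0, at 0.0038 and 0.01. By main probe set 23 members were lower and 15 higher on the KO array, where 53.7% of all measured genes were lower. Of the 38 members, 27 were within 1.5-fold. The others were 7 at least 1.5-fold lower and 4 at least 1.5-fold higher, against 19.3% and 12.8% of all measured genes. At least 2-fold lower were 3 of 38 (7.89%), against 6.72% of all measured genes, and 0 of 38 were at least 2-fold higher, against 3.73%. The share of members at least 2-fold lower was thus near that of all measured genes. Of these genes 12397 were over the floor on both arrays, as all 38 members were. Among genes with signals of at least 4 times the floor on both arrays, where ratios scatter less, 2 of 23 members were at least 2-fold lower and 0 higher. This stands against 2.83% lower and 3.04% higher among 4808 such genes. The lower share of the members was above theirs there, but rests on 2 genes. The members' ratios ran from -1.15 to 0.84 with an SD of 0.52, beside 0.65 over all measured genes, and the 23 members among those brighter genes had an SD of 0.50, beside 0.54 over all 4808.

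**Figure D1:**
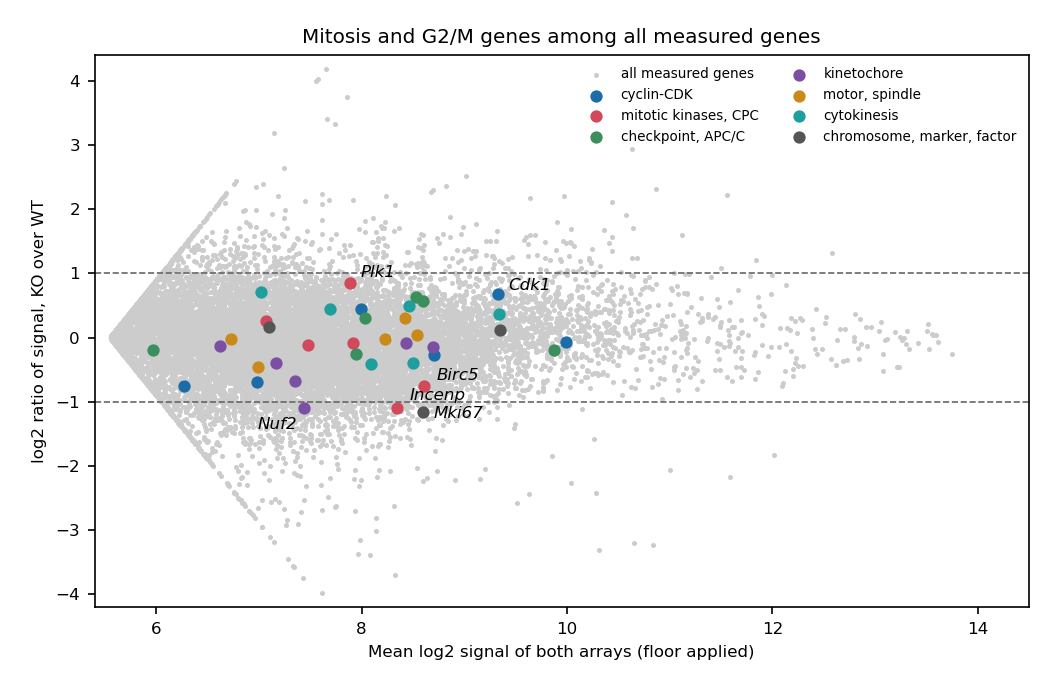
Each grey point is 1 of 14597 measured genes, placed by its mean log2 signal (x) and its log2 ratio of KO over WT (y); the 38 mitotic genes are coloured by role and dashed lines mark 2-fold. The 3 members under the lower line are Mki67, Incenp and Nuf2, none lies over the upper line, and 1 grey gene lies below the lower edge at -4.2.

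The members that differed most lay in different branches of the program. Mki67, which encodes the proliferation marker Ki-67, a protein that coats mitotic chromosomes, read 578 in WT and 259.9 in KO, a 2.22-fold difference towards lower signal. Nuf2, a subunit of the microtubule-binding Ndc80 complex, read 254 and 119, 2.14-fold lower. Both have only 1 measured probe set, so neither could be set against another. Incenp, the scaffold of the Aurora B complex, read 478 and 223 by its main probe set, 2.15-fold lower, and is described with that complex below. At the other end Plk1, the Polo kinase, read 177 and 317 (1.79-fold higher), Kif20a 102 and 166 (1.63-fold higher), and Cdk1 508 and 811 (1.598-fold higher).

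The promoters of 4 of these genes are shown because many mitotic genes share the same control elements and the members printed differ in direction: Ccnb2 and Cdk1 read higher on the KO array, Nuf2 and Mki67 lower. Each run is 300 bases, 5′ to 3′ on the gene's strand, with 250 bases before and 50 from the RefSeq start (build GRCm38.p6). Capitals mark TTTGAA or TTCGAA, forms of the cell cycle homology region (CHR) that the MuvB complexes bind, CCAAT, the element of NF-Y, and GTAAACA, a forkhead consensus, each on either strand; TTCGAA reads the same on both, matches may overlap at their ends, and a promoter with both CHR forms counts under each.
Ccnb2, chr9:70421505-70421804, minus strand: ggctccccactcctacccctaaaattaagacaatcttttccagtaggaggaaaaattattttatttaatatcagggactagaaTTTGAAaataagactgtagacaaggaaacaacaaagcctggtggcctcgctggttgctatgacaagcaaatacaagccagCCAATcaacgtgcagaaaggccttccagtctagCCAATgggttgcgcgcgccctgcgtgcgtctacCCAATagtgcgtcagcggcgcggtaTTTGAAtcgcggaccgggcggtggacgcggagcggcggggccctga
Cdk1, chr10:69352863-69353162, minus strand: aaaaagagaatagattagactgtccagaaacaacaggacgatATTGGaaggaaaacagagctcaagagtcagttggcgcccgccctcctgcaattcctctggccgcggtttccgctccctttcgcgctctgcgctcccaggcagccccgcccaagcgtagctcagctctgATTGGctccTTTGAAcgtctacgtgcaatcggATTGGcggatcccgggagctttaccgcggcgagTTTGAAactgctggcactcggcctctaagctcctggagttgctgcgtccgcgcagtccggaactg
Nuf2, chr1:169531415-169531714, minus strand: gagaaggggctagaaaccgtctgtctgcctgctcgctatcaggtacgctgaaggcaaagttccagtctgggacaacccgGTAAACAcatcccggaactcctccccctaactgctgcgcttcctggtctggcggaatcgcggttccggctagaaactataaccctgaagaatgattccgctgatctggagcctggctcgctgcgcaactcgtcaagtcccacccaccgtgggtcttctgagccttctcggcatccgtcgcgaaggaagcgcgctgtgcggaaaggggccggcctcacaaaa
Mki67, chr7:135716330-135716629, minus strand: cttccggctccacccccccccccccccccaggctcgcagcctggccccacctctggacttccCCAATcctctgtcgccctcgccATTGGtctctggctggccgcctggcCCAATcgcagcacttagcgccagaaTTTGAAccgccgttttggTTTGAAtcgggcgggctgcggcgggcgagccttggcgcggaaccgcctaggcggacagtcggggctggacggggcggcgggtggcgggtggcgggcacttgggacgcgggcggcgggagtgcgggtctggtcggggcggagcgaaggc

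Counting the start as position 0, Ccnb2 held TTTGAA beginning at -167 and 4 and 3 CCAAT boxes between -87 and -21. Cdk1 held TTTGAA at -71 and -15 with 3 CCAAT boxes from -208 to -48, and Mki67 TTTGAA at -116 and -98 with 3 CCAAT boxes from -188 to -141. In the Nuf2 window the only match was 1 GTAAACA at -171. Promoter sequences were at hand for 32 of the 39 members, those of Ccna2, Cdc25c, Aurkb, Incenp, Tpx2, Kif20a and Foxm1 being the exceptions. TTTGAA stood in 23 of the 32 (71.9%), against 20.2% of 27025 genes with a promoter of the same length; CCAAT in 26 (81.2%, against 41.1%); TTCGAA in 4 (12.5%, against 1.80%); and GTAAACA in 2, Nuf2 and Ect2 (6.25%, against 4.05%). A CHR form together with CCAAT was found in 22 (68.8%, against 8.61%).

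Members with and without a CHR form overlapped in their ratios. The 25 measured members with TTTGAA or TTCGAA had a median log2 ratio of -0.08, and the 6 without had -0.39; ratios of the first ran from -1.15 (Mki67) to 0.84 (Plk1), so the holders of this element covered the whole range of the members. Nuf2 and Ect2, the holders of GTAAACA, had ratios of -1.10 and -0.42. These letters are matches only, and whether any factor sits there was not measured.

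Among the genes of the cyclin-CDK switch, the kinase and its B-type cyclin read higher on the KO array and the phosphatases Cdc25b and Cdc25c lower. Cdk1 (508 and 811, log2 ratio 0.68) and Ccnb2, which encodes cyclin B2 (218 and 297, 0.44), were both higher, each by a single probe set. Ccna2, cyclin A2, was lower by both of its probe sets (459 and 381; 495 and 345). Cdc25b and Cdc25c, phosphatases that activate Cdk1, were lower by every measured probe set. Cdc25b read 160.4 and 99.0 (-0.70), and Cdc25c 100.3 and 59.3 (-0.76), with its second probe set at 52.6 in WT and under the floor in KO. The main probe set of Cdc25c is of a type (_s_at or _x_at) that can match several transcripts. So are those of Incenp, Cdc20, Aurkb and Nek2. Without such types the ratio of Cdc25c was at most -0.16, and with the floor at the 60th percentile at most -0.21. In both cases the KO signal was under the floor. Cks2, a small subunit that docks Cdk1 to its substrates, was level by one probe set (1041 and 991). It was 1.75-fold higher by another (569 and 994), which is of a cross-matching type. Over the 6 measured genes the median was -0.17, and it was 0.19 over the 4 of them at 4 times the floor or more. Of the 6, 0 were at least 2-fold lower or higher, beside 6.72% and 3.73% of all measured genes.

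The mitotic kinases and the chromosomal passenger complex were split. Plk1, which drives mitotic entry and spindle assembly, had the highest ratio of all members (177 and 317, 0.84). Aurka, the spindle pole Aurora kinase, was level (249 and 236), as was Nek2, a kinase of centrosome separation (185 and 172). The 3 other probe sets of Nek2 had ratios of -0.39, -0.06 and at least 0.01, the last being under the floor in WT. In the passenger complex, which corrects faulty chromosome attachments, Aurkb, its kinase, read 123 and 146 by one probe set and 131 and 117 by the other. Both are of the cross-matching types, so Aurkb has no value without them. The partners of Aurkb were lower: Birc5, which encodes survivin, read 507 and 300.2 (-0.76), and Cdca8, borealin, which is no member, 469 and 253 (-0.89).

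Incenp itself depended on the probe set. The probe set with the highest signal (478 and 223, -1.10), a type that can match several transcripts, was lower on the KO array. So was another (97.7 and under the floor, at least 2.08-fold lower). The 2 others were higher, 1 at 265 and 299.7 (0.18) and 1 under the floor and at 49.8 (at least 0.08). Without probe sets of the cross-matching types the gene's ratio was 0.18. The role's median over 6 genes was -0.09, and it turned to 0.02 and 0.04 with quantile and loess scaling. Of the 6, 1 was at least 2-fold lower and 0 higher, beside 6.72% and 3.73% of all measured genes.

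**Figure D2:**
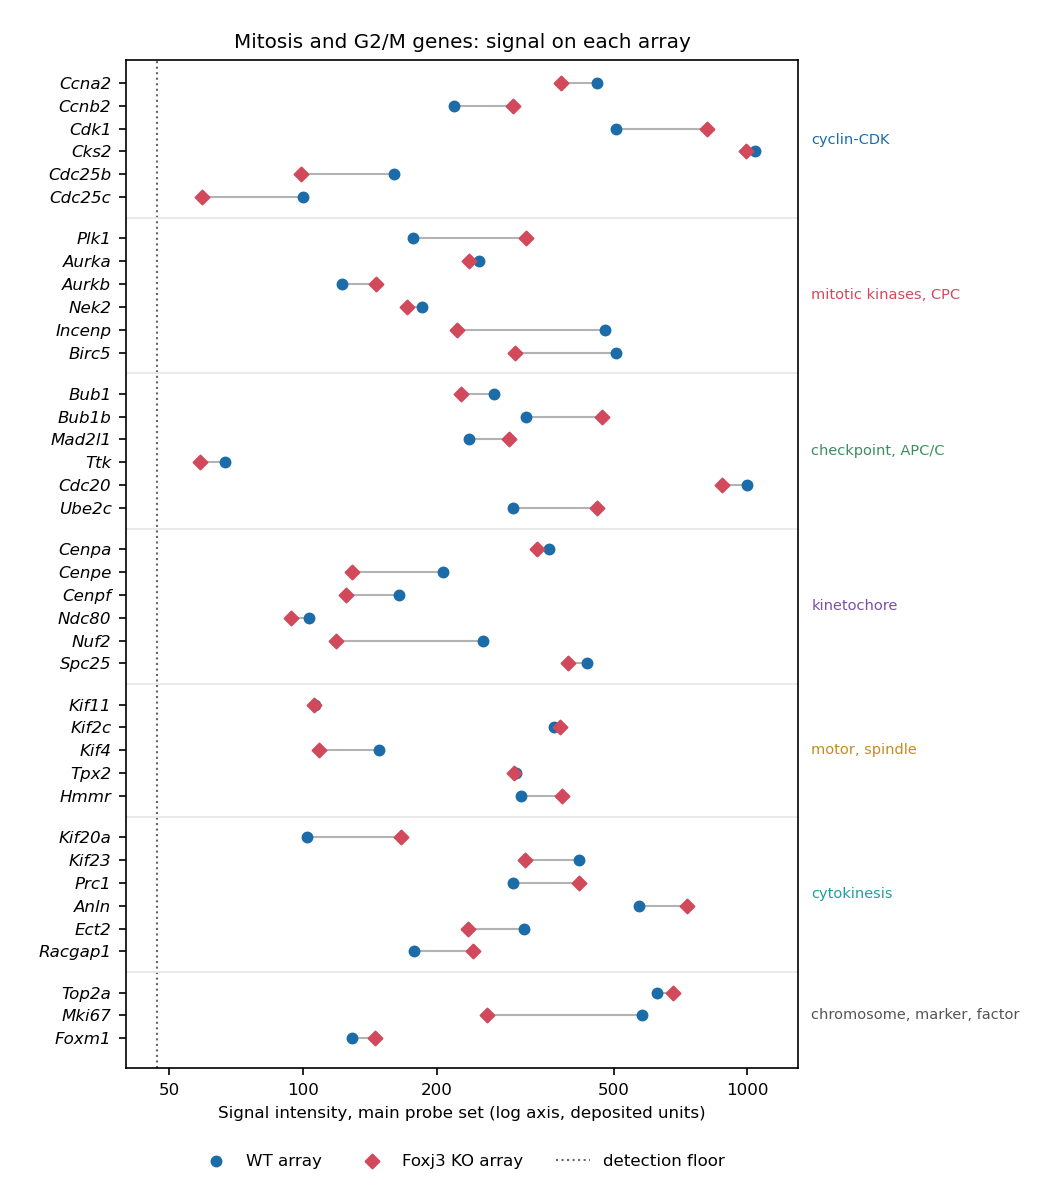
Signal of each of the 38 members by its main probe set in WT (circles) and KO (diamonds), on a log axis, grouped by role; the dotted line is the floor of 47.04. Most pairs lie close together, the widest gaps being those of Mki67, Incenp and Nuf2 towards lower KO signal and of Plk1 towards higher. Signals of different genes are not comparable, since probes differ in brightness.

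Spindle checkpoint and APC/C genes showed no common direction. Ube2c, the ubiquitin-conjugating enzyme of the APC/C, read 298 and 459.8 (0.63) and Mad2l1, the checkpoint protein MAD2, 236 and 292 (0.30), each by 1 probe set. Bub1b, which encodes the checkpoint protein BubR1, was 1.48-fold higher by its main probe set (318 and 471), but 1.59-fold lower by a second (305 and 191), and lower by the remaining one (52.8 and under the floor). Bub1, the checkpoint kinase, read 269 and 226, and its other probe set was under the floor in WT and at 60.03 in KO. Ttk, the kinase MPS1 that recruits the checkpoint proteins, was dim at 66.9 and 58.7. Cdc20, the APC/C activator that the checkpoint inhibits, read 999 and 876 by its main probe set and 482 and 411 by another, while the remaining one read higher on the KO array (324 and 445). The median over these 6 genes was 0.06, with 3 below and 3 above 0, where 53.7% of all measured genes were below. Of the 6, 0 were at least 2-fold lower or higher, beside 6.72% and 3.73% of all measured genes.

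Kinetochore genes were the role in which every main probe set read lower on the KO array. All 6 had ratios below 0, against 53.7% of all measured genes, and their median was -0.27; Cenpa turned to 0.04 with quantile and 0.05 with loess scaling, while the median stayed between -0.41 and -0.21 over 11 alternatives. Nuf2 (254 and 119, -1.10) and Cenpe, the kinesin that carries chromosomes to the spindle equator (206 and 129, -0.68), were furthest from 0. Cenpf, a large kinetochore protein of late G2, read 164 and 125 (-0.40). Its other 2 measured probe sets, under the floor on the WT array, had ratios of at least 0.38 and at least 0.04. With the mean over probe sets the ratio of Cenpf was 0.0051. Spc25 was lower by both probe sets (437 and 395; 69.5 and 50.8), and Ndc80 read 103 and 94.1 (-0.14). Cenpa, the histone variant that marks centromeres, was level at 358 and 336, and its second measured probe set, of opposite sign, read 54.0 and 56.3 (0.06).

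The subunits of the Ndc80 complex bind one another in fixed numbers. Their ratios were all below 0: Nuf2 had -1.10, Spc24, which is no member, -0.56 (269.8 and 183), Spc25 -0.14 and Ndc80 -0.14. Whether these ratios differ from one another was not tested.

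Of the 5 motor and spindle genes, Kif11, Kif2c and Tpx2 were level by their main probe sets, Kif4 read lower and Hmmr higher. Kif11, the kinesin that pushes spindle poles apart, read 107 and 106, but 63.9 and 120.2 (0.91) and 63.0 and 76.7 (0.28) by the others. Kif2c, a kinesin that takes microtubules apart, read 367 and 379.7 by its main probe set. Its others read 231 and 112 (-1.04), 89.98 and 73.2 (-0.30), and under the floor and 108 (at least 2.30-fold higher), so that 1 gene held ratios past 2-fold in both directions. Tpx2, which activates Aurora A on spindle microtubules, was level at 301 and 298, with others at -0.47, 0.53 and 1.14. Kif4, a chromosome-bound kinesin, read 148 and 109 (-0.45) by 1 probe set.

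Hmmr, a spindle protein also known as the hyaluronan receptor RHAMM, was the single member with 3 or more measured probe sets that all lay on the same side of 0. Its 5 probe sets read 309 and 384, 81.1 and 215, 98.9 and 161, under the floor and 87.6, and under the floor and 67.1. The one at 98.9 and 161 is of a cross-matching type. All 5 were higher on the KO array, with log2 ratios of 0.31, 1.41, 0.71, at least 0.90 and at least 0.51. The highest of these, 2.65-fold, was the highest ratio of all 76 measured probe sets. It was picked out after its values were seen. The median over the 5 motor and spindle genes was -0.01. Its sign changed with quantile (0.12) and loess (0.13) scaling, and with the all-gene median set to 0 (0.04). It also changed with genes from 4 times the floor (0.05) and with the mean over probe sets (0.30). Of the 5, 0 were at least 2-fold lower or higher, beside 6.72% and 3.73% of all measured genes.

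Cytokinesis genes had the highest role median, 0.40 over 6 genes. Of these, 4 were above and 2 below 0, where 53.7% of all measured genes were below. Of the 6, 0 were at least 2-fold lower or higher, beside 6.72% and 3.73% of all measured genes. Kif20a, a kinesin of the cleavage midzone, read 102 and 166 (0.70). Prc1, which bundles the microtubules of the midzone, was higher by both probe sets (296 and 419; 279 and 386), and their ratios of 0.50 and 0.47 were close. Anln, anillin, which scaffolds the contractile ring, read 569.99 and 732 (0.36) by its main probe set, and 86.4 and under the floor (at least 1.84-fold lower) by its other one. Centralspindlin and its partner were divided: Racgap1 read 178 and 241 (0.44) by 1 probe set and 209.7 and 171 (-0.30) by another. Kif23 (417 and 316, -0.40) and Ect2, which is needed for cytokinesis (314 and 236, -0.42), were lower. The other measured probe set of Kif23 was under the floor in WT and at 56.9 in KO, a ratio of at least 0.27. With the mean over probe sets in place of the main one, the role's median was 0.0044, and without Kif20a and Kif23, which are kinesins too, it was 0.40.

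Of the last 3 members, Top2a, the topoisomerase that untangles sister chromatids, was level by both probe sets (627 and 679.8; 103 and 118), which contrasts with Mki67 (578 and 259.9). Foxm1, a forkhead factor that activates mitotic genes, read 129 and 145, 117 and 132, and 111 and 89.99 by its 3 measured probe sets, with ratios of 0.17, 0.17 and -0.30. The median of the 3 genes was 0.12.

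**Figure D3:**
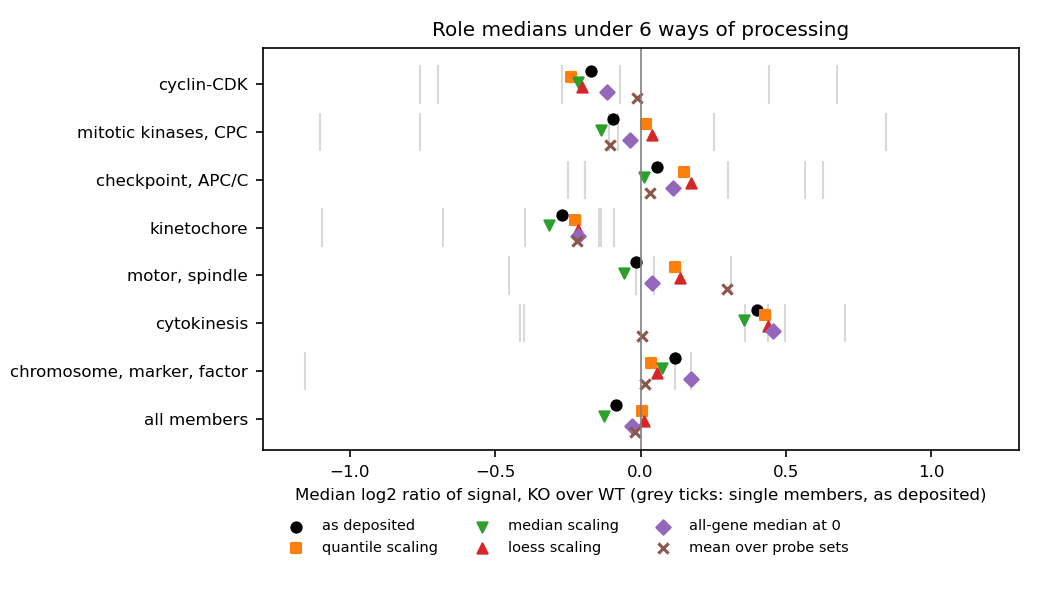
Median log2 ratio of KO over WT (x) for each role and for all members under 6 ways of processing, with single members as grey ticks. The kinetochore symbols all lie left of 0, and the cytokinesis symbols lie near 0.4 except the mean over probe sets, which lies at 0.0044.

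Probe sets of the same gene bounded how finely any of these ratios can be read. Of the 38 members 22 had 2 or more measured probe sets; in 6 of these (27.3%) all others shared the sign of the main one, and in 16 at least 1 was opposite. Over all genes with other measured probe sets the share with 1 sign was 39.9%. Both shares depend on how many probe sets each gene has, so they do not set members apart from other genes. In the 17 members where both arrays had 2 probe sets over the floor, the difference between the 2 brightest had an SD of 0.72, beside 0.88 over 4752 genes. The SD of 0.51 per probe set that this implies was close to the SD of 0.52 among the members. This spread holds no difference between cultures. In sign, the 2 brightest matched in 9 of those 17 members (52.9%) and in 53.9% of the 4752 genes. Members were thus close to other genes in this, and in both a direction often changed with the probe set. Of the 76 measured probe sets of members, 5 were at least 2-fold lower (against 6.67% of 25057 probe sets with 1 symbol) and 3 at least 2-fold higher (against 5.62%). The latter belonged to Hmmr, Kif2c and Tpx2, and the former to Mki67, Nuf2, Kif2c and, with 2 probe sets, Incenp. The lower probe set of Kif2c and the brightest of Incenp are of the cross-matching types, and without such types the lower count was 3.

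**Figure D4:**
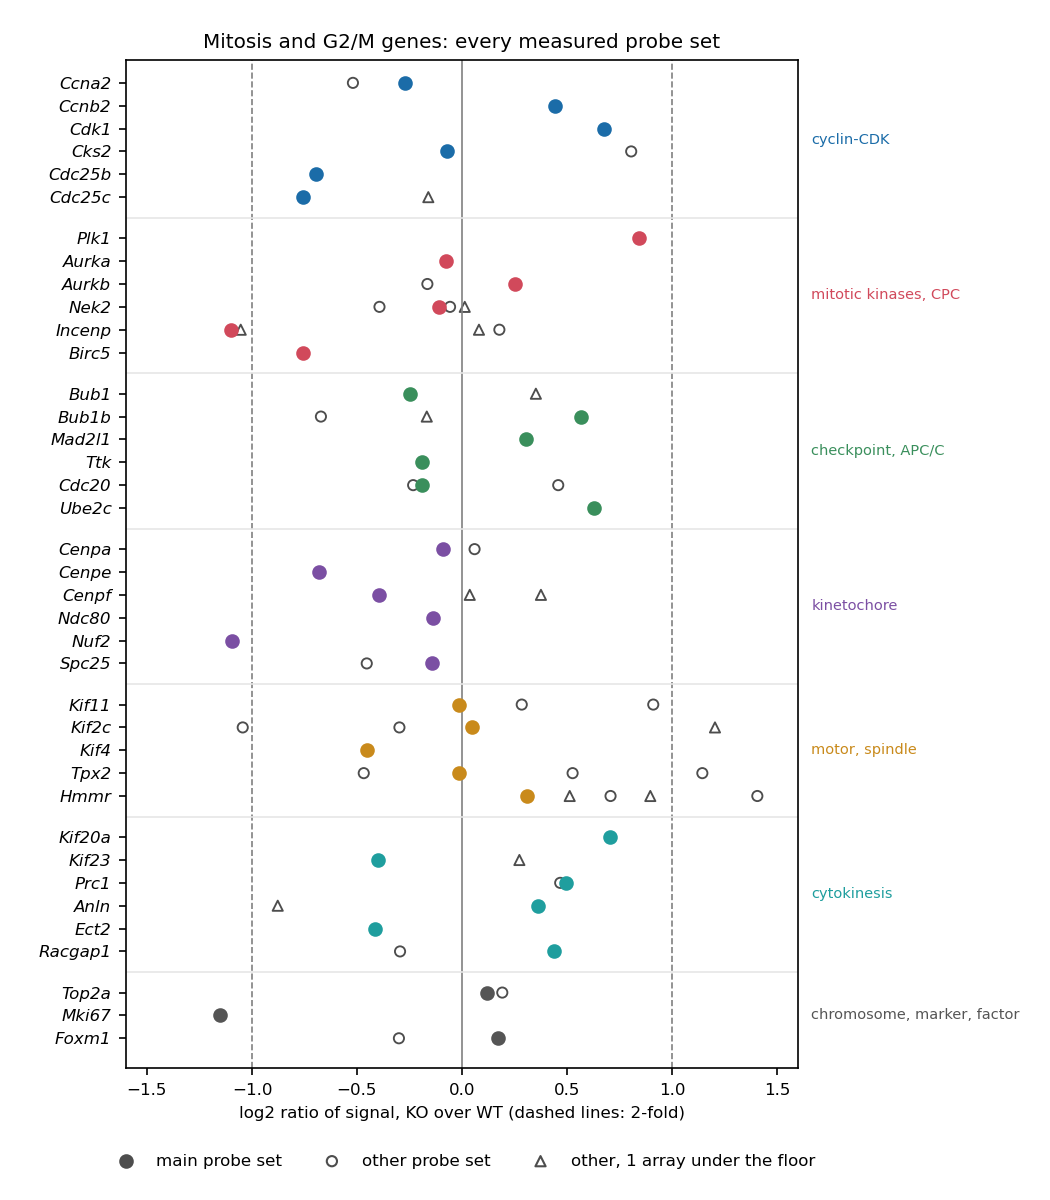
Log2 ratio of KO over WT (x) of all 76 measured probe sets of the 38 members; filled circles are main probe sets, open circles others, and triangles others with 1 array under the floor, whose ratios are bounds. Kif2c, Tpx2, Bub1b and Incenp have probe sets on both sides of 0, while all 5 of Hmmr lie to the right.

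The rest of the mitotic machinery was read from 5 further lists of 124 genes, of which 120 were measured. Of these 10 (8.33%) were at least 2-fold lower and 7 (5.83%) at least 2-fold higher, beside the 6.72% and 3.73% of all genes, and their median was -0.13. Other centromere and kinetochore subunits had a median of -0.24, with 20 of 25 below 0, against 53.7% of all measured genes. Of the 25, 3 were at least 2-fold lower and 0 higher. Ska1 (243 and 91.5) and Ska2 (264 and 118), of the complex that tracks microtubule ends, were 2.65-fold and 2.24-fold lower, but each had a probe set of opposite sign, while Cenpw (368 and 183) was 2.01-fold lower with its other probe set at -0.16. Condensin and cohesin genes, which shape and hold chromosomes, had a median of -0.22 (0.01 with the mean over probe sets). Of the 17, 14 were below 0, beside the same 53.7%, and 2 were at least 2-fold lower and 1 higher. The condensin gene Ncapg read 277 and 139 (2.001-fold lower, its other probe set at -0.51), Ncapd3 279 and 127 (1 of its 2 others opposite), and Cdca5, sororin, 236 and 643 with an opposite second probe set (-0.90).

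Other regulators of G2/M held genes at least 2-fold different in both directions. Of 22 measured, 3 (13.6%) were at least 2-fold lower and 4 (18.2%) at least 2-fold higher, beside 6.72% and 3.73% of all measured genes. With the mean over probe sets the counts were 1 and 2, against 4.29% and 3.03% of all genes. They were 1 and 1 where a gene needed other measured probe sets, all of its sign, against 1.49% and 0.767%. The median of -0.12 turned to 0.03 with loess scaling and 0.06 with the mean over probe sets. Pkmyt1, a kinase that inhibits Cdk1, was 2.27-fold higher (179 and 406), with its other probe set at 0.60, and Gtse1, a microtubule-binding protein of G2, 2.29-fold higher (139 and 318) by 1 probe set. Bora, which helps Aurora A activate Plk1, was 2.20-fold lower (143 and 65.2; other probe set -0.43). Trip13, which disassembles checkpoint complexes, was 2.81-fold higher (165 and 465), with an opposite second probe set (-0.52). Other checkpoint and APC/C subunits, 25 in all, had a median of 0.02 (-0.03 with median scaling); 0 were at least 2-fold lower and 1 higher, Anapc5 (771 and 1826), 2 of whose 5 other probe sets were opposite. Other motors and spindle proteins, 31 in all, had a median of -0.03, which turned to 0.01 with quantile and 0.02 with loess scaling and 0.03 with the all-gene median set to 0; 2 were at least 2-fold lower and 1 higher. These were Stil (2.29-fold lower) and Tacc3 (2.04-fold lower, with 1 of 2 others opposite), both of centrosomes and spindle poles, and the kinesin Kif24, under the floor in WT and at 248 in KO (at least 5.28-fold higher, with others at 0.01 and 0.20). In these further lists the main probe sets of Ska1, Ncapd3, Anapc5 and Tacc3 are of the cross-matching types.

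The stage of the cycle before mitosis was set beside the members. The 46 measured DNA replication and G1/S genes had a median of -0.33; 7 (15.2%) were at least 2-fold lower and 1 (2.17%) higher, beside 6.72% and 3.73% of all measured genes. The lower count was 3 over the 31 genes from 4 times the floor on at least 1 array, against 9.18% of all genes so chosen. It was 0 where a gene needed other measured probe sets, all of its sign, against 1.49% of all measured genes. The median was -0.09 without probe sets of the cross-matching types, for which the members' median was -0.07, and -0.05 over genes from 4 times the floor, for which the members' median was -0.07. The lowest were Ung (141 and under the floor, at least 2.99-fold lower) and Rpa2, Rfc1 and Mcm5, which each had a probe set of opposite sign. The main probe set of Mcm5 is of a cross-matching type. Genes of cell cycle exit (CDK inhibitors, pocket proteins, D cyclins and others), 19 in all, had a median of 0.11 and 0 of them were at least 2-fold different. Furthest from 0 were Cdkn1b, which encodes the inhibitor p27 (296 and 158), and Rb1 (777 and 434), both lower on the KO array. Of this list Ccng2 and Lin52, and of the G1/S list Cdc25a, also stand among the other regulators of G2/M. None of these differences between lists was tested.

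**Figure D5:**
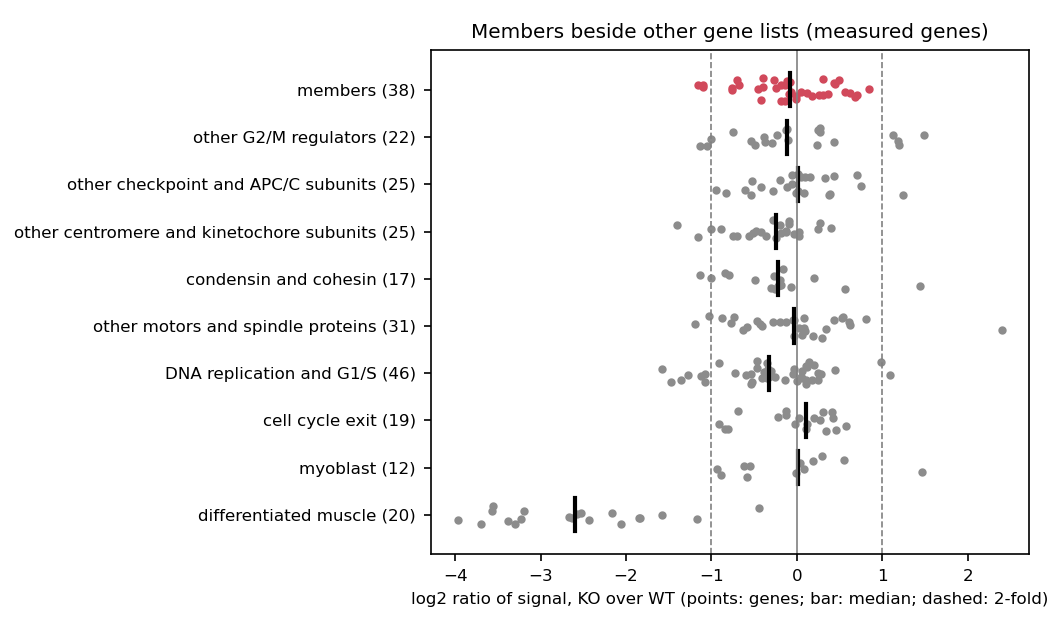
Log2 ratios of KO over WT (x) of single measured genes in each list, with the number of genes in brackets, the median as a black bar and 2-fold as dashed lines. The members' median is -0.08 and that of DNA replication and G1/S genes -0.33, while the 20 differentiated muscle genes lie apart with a median of -2.60.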

How the data were processed

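Expression was measured on 1 WT and 1 KO array. The authors deposited a linear signal intensity for each of 45037 probe sets on each array, with medians of 62.03 (WT) and 63.94 (KO); probe summarisation and scaling are not given in the sources used here, and values were used as deposited. The scanner records, per the file headers, differed in 2 of 42 fields, fluidics module and scan time. Having 1 array per genotype limits precision throughout. Columns without a sample numbered 0.

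Gene names came from the platform annotation, with symbols updated by Entrez identifier in a RefSeq gene table (GRCm38.p6; 34741 of 34945 single-symbol probe sets matched). A further 932 had several symbols, 1 of them a member's, and 9160 were not listed; these named no gene. Signals under the floor were set to it before log2 (Python 3.11.15, pandas 2.3.3). Direction is KO over WT, 2-fold was the threshold, and no p-value was computed. The calculation was tested on simulated data.

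Named were all members, up to 4 genes per further list at 2-fold or the 2 furthest from 0, Foxj3, and 4 myogenic markers; other markers and the complex partners Cdca8 and Spc24 were named after their values were seen. Members and lists were chosen with earlier results of these data known. Of the promoters planned for printing, those of Cdc25c and Incenp were not in the table used, and that of Ccnb1 was left out because the gene has no value.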

Additional observations from a re-analysis of the deposited data

How the results depend on the processing

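With 1 array per genotype, medians were set against the spread between probe sets of a gene: 0.62 for a single gene, 0.13 for the members' median, and 0.45, 0.35 and 0.32 for roles of 3, 5 and 6 genes. The members' median ranged from -0.13 to 0.01 over 11 alternatives. Of 90 alternative values of it and the role medians, 86 moved by less than this spread. The others were 0.0044 for cytokinesis with the mean over probe sets, and values with genes counted from 4 times the floor on at least 1 array. These were 0.19 for cyclin-CDK, -0.42 for mitotic kinases and -0.52 for Top2a, Mki67 and Foxm1. Counts of members at least 2-fold lower (3) and higher (0) became 7 and 4 at 1.5-fold, against 19.3% and 12.8% of all measured genes. The lower count became 0 at 3-fold (against 1.51%), 1 with loess scaling (5.52%) and 1 with a pseudocount (3.33%). It was 0 where a gene needed other measured probe sets, all of its sign (1.49%). That setting drops Mki67 and Nuf2 for having no other and Incenp for opposite ones. Probe sets at least 2-fold lower (5) became 11 at 1.5-fold, 0 at 3-fold, 8 with the floor at the 20th percentile, 11 with no floor, 2 with loess scaling, 1 with a pseudocount, 3 without _s_at and _x_at probe sets, and 3 with the all-gene median set to 0, an alternative chosen after seeing the data, as was moving Kif20a and Kif23. Probe sets at least 2-fold higher (3) became 11 at 1.5-fold, 0 at 3-fold, 8 with no floor, and 1 with a floor set at the 60th percentile or with genes from 4 times the floor. For these alternative probe set counts no share over all probe sets is given here, so they do not set members apart. Incenp turned from -1.10 to 0.18 without _s_at and _x_at probe sets. Of 405 alternative values of single members, 402 moved by less than 0.62. Part of this was set in advance, since every main probe set was over the floor on both arrays. A lower floor, or none, thus changed no member's ratio and no role median. The spread is also wide: Anln went from 0.36 to -0.26 with the mean over probe sets and counts as within it. The count of 402 therefore does not show that single ratios are stable. Of 196 alternative counts of the other lists, 64 moved by over 1.5 times, and of their 77 medians 7 moved beyond the spread. The causes were not tested. Differences between cultures, which probe sets do not show, limit every value. No paired analysis was possible because each genotype has 1 array.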
